A study of Mus musculus with 3 samples.

Results

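Of the 15524 regions bound by Runx3 in resting splenic natural killer cells (NKC), 539 (3.47%, 95% Wilson interval 3.20 to 3.77) lay at the starts of noncoding transcripts only. A Runx3-bound region is called a peak here. A peak was taken into this class when its midpoint was under 1 kb from the start of any transcript annotated by GENCODE M1 on the mm9 genome, but at least 1 kb from every transcript start of the type protein_coding. The series holds 3 ChIP-seq samples of NKC from spleens of ICR mice, 1 each for Runx3 (a polyclonal antibody made in house), for histone H3 monomethylated at lysine 4 (H3K4me1, a monoclonal antibody) and for non-immune rabbit serum (NIS), the control. All 3 shared the same preparation: cells were freshly isolated, depleted of other cells, sorted, fixed in 1% formaldehyde and frozen, with no cytokine treatment named and no age of the mice given. The labels name NKp46 as the sorting marker and the methods name DX5, and the region lists cannot tell which was used. All 8 NKC marker genes searched (Ncr1, Klrb1c, Klrd1, Klrk1, Itga2, Eomes, Tbx21 and Prf1) had at least 2 Runx3 peaks on the gene or within 5 kb of it. At least 1 Runx3 peak in that range was found at 39.7% of all protein-coding genes. It was also found at 4 of 7 B cell and 3 of 8 T cell marker genes. The marker genes were chosen after seeing the data. The files hold 15524 Runx3 peaks and 49902 H3K4me1 regions as coordinates alone, so the read depth and the signal behind a peak are unknown. With 1 list per antibody, called by the authors on the joined reads of their biological repeats, there were no replicate lists. Intervals below are 95% intervals of counting error over peaks, and a difference between classes is called larger than counting error when its Newcombe interval left out 0.

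Runx3 is a transcription factor that binds DNA through its Runt domain and is needed for the development of cytotoxic lymphocytes. It recognises the RUNX consensus, a hexamer that occurs as TGTGGT (variant 1), as TGTGGC (variant 2), as TGCGGT (variant 3) and as TGCGGC (variant 4). H3K4me1 marks enhancers and the flanks of promoters, while nucleosomes at the centre of an active promoter usually carry trimethylation in its place. Noncoding transcripts begin both at promoters of RNA genes, such as long intergenic noncoding RNAs (lincRNAs) and the hosts of microRNAs and small nucleolar RNAs, and inside protein-coding genes, where annotation lists short processed or intron-retaining transcripts. For microRNAs, snRNAs and snoRNAs the annotated start is usually that of the small RNA itself and not that of a longer host transcript.

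The RUNX matches of 9 peaks at genes named below are shown first, because they place the motif in its sequence next to a noncoding start. Each window was cut around the match nearest to the peak midpoint, so every line holds a match. A candidate peak with no match was left out. For Mir132, Lck and Coro1a the match shown lay 117, 184 and 146 bp from the midpoint, outside the central 200 bp of the peak. Each line holds 100 bp of the mm9 reference, a C57BL/6 sequence and not that of the ICR mice, on the strand of the noncoding transcript, with RUNX matches on either strand in capitals (GCCACA and ACCACA are TGTGGC and TGTGGT read from the other strand). The windows were, in the order shown, chr11:74987047-74987146 (+ strand), chr11:87570187-87570286 (+ strand), chr10:122422317-122422416 (- strand), chr3:108357682-108357781 (- strand), chr9:88417694-88417793 (- strand), chr19:53539301-53539400 (- strand), chr3:135257441-135257540 (- strand), chr4:129233696-129233795 (- strand) and chr7:133844986-133845085 (- strand).
Mir132: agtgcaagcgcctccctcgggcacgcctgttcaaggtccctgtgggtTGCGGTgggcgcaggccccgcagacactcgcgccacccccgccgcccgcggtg
Mir142: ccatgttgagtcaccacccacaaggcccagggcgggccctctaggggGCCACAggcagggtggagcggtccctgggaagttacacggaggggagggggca
Mirlet7i: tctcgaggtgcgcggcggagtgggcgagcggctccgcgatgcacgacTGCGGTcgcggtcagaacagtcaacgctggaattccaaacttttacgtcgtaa
Scarna2: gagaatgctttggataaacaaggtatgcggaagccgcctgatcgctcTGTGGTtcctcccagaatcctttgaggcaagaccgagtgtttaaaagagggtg
Snhg5: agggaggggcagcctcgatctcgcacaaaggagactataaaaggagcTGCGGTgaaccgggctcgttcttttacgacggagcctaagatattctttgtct
5830416P10Rik: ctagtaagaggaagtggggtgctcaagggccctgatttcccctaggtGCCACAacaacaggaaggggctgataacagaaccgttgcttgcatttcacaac
Nfkb1: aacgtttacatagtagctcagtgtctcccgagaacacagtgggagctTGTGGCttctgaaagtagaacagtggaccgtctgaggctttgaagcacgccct
Lck: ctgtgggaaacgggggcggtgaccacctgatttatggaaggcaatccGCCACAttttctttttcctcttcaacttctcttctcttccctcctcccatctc
Coro1a: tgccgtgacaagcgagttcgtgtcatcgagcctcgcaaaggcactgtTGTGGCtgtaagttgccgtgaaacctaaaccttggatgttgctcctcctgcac

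By the gene type of the nearest noncoding start, 233 of the 539 peaks (43.2%, 39.1 to 47.4) belonged to noncoding transcripts of protein-coding genes. The other 306 fell on 97 starts of the gene type processed_transcript, which here holds mainly antisense and long noncoding RNAs, 75 lincRNA, 31 pseudogene, 27 immunoglobulin or T cell receptor variable segment (gene type IG_V_gene), 25 microRNA, 22 snoRNA, 18 snRNA, 6 rRNA, 4 miscellaneous RNA and 1 IG_D_gene. Among the peaks of protein-coding genes, the transcript was a processed transcript for 137, an intron-retaining transcript for 77 and a target of nonsense-mediated decay for 19. The word noncoding has limits here. The receptor segments encode protein once rearranged, and 28 peaks had only such segments in reach, while 15 had only nonsense-mediated decay transcripts. The peaks belonged to 512 gene identifiers. At 23 genes there were 2 or more of these peaks, with 4 at Sema4d, which encodes a semaphorin, 3 at Nfkb1 and 3 at Dgkz. Starts of 2 or more gene types were in reach of 27 peaks, and the nearest decided.

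Most of these peaks were far from the starts of protein-coding transcripts. The nearest coding start was 1 to 2 kb away for 75 peaks (13.9%), 2 to 5 kb for 18.7%, 5 to 50 kb for 287 (53.2%) and 50 kb or more for 76 (14.1%). By their midpoints, 244 peaks (45.3%) lay in an intron of a protein-coding gene, 33 in a coding exon, 16 in a UTR exon, 34 in another exon of such a gene and 212 (39.3%) outside protein-coding genes. There were 105 peaks inside a protein-coding gene whose noncoding start belonged to another gene type. Of these, 70 had that start on the strand opposite to the protein-coding gene and 34 on the same strand. The remaining 1 lay in protein-coding genes of both strands.

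Around the noncoding start the midpoints were densest just upstream. The 100 bp before the start held 68 midpoints and the 100 bp after it 41, while each 100 bp step beyond 500 bp on either side held 12 to 25. Within 250 bp of the start lay 224 of 539 midpoints (41.6%, 37.5 to 45.8), and 93 (17.3%) lay 750 to 1000 bp away. Peaks at coding starts sat closer to theirs, with 4090 of 5533 (73.9%, 72.8 to 75.1) within 250 bp, although the class limits set the range of both distances. Upstream midpoints numbered 288 (53.4%, 49.2 to 57.6) and downstream ones 251.

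**Figure D1:**
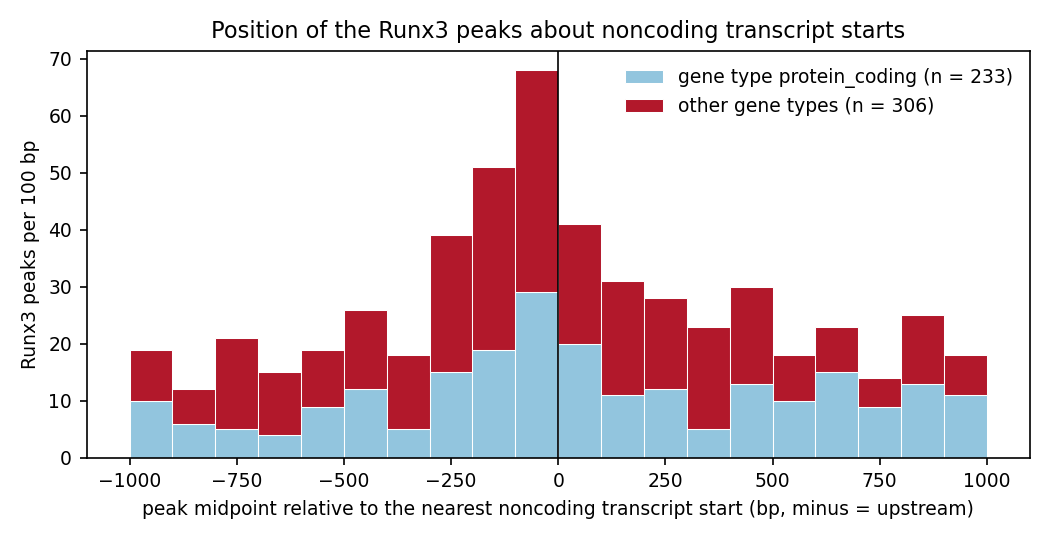
Histogram of the 539 peaks by the distance of the midpoint from the nearest noncoding transcript start in bp (x axis, minus is upstream) in steps of 100 bp (y axis, number of peaks), stacked by whether the start belongs to a protein-coding gene (233 peaks) or another gene type (306). The tallest step, 68 peaks, is the 100 bp just upstream of the start.

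H3K4me1 at the midpoint differed between these peaks and those at coding starts. The midpoint lay inside an H3K4me1 region for 484 of 539 peaks (89.8%, 86.9 to 92.1), against 83.6% of all 15524 peaks, 63.9% of the 5533 peaks under 1 kb from a protein-coding transcript start and 94.9% of the 7002 distal peaks, which lay over 5 kb from every start. The share was 25.9 percentage points (22.8 to 28.6) above that at coding starts and different from that of distal peaks by -5.09 points (-7.98 to -2.75), both larger than counting error. Counting any overlap of at least 1 bp left little of the first difference, as 518 peaks (96.1%) overlapped an H3K4me1 region, against 95.7% of all peaks and 95.3% at coding starts, a difference of 0.785 points (-1.27 to 2.24). With an overlap of at least 50% of the peak the difference was 15.8 points (12.98 to 18.1).

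The H3K4me1 region that held the midpoint was wider than at coding starts, with a median of 3723 bp (3334 to 4088, 484 peaks) against 2213 bp (2139 to 2282, 3533 peaks), and 4450 bp (4350 to 4606, 6644 peaks) for distal peaks. Of the 55 midpoints outside H3K4me1, 34 belonged to peaks that touched a region with another part and 21 to peaks with no overlap. H3K4me1 regions stood on both sides within 2 kb of 29 of the 55, and 31 of the 55 (56.4%) were CpG-rich.

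Among gene types, the share with the midpoint in H3K4me1 was 94.0% (219 of 233) at protein-coding genes and 86.6% (265 of 306) at all other types, a difference of 7.39 points (2.30 to 12.3). With a limit of 500 bp in place of 1 kb the difference was 6.26 points and its interval held 0 (-0.890 to 13.1). The share was 91.8% (84.6 to 95.8) at the processed_transcript type, 81.3% (71.1 to 88.5) at lincRNAs and 83.9% (67.4 to 92.9) at pseudogenes. It was 80% (60.9 to 91.1) at microRNAs, 81.8% (61.5 to 92.7) at snoRNAs and 77.8% (54.8 to 91.0) at snRNAs. The intervals of these small RNA and lincRNA groups overlap, and no order among them can be read. All 27 peaks at receptor variable segments had the midpoint in H3K4me1 (87.5 to 100).

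**Figure D2:**
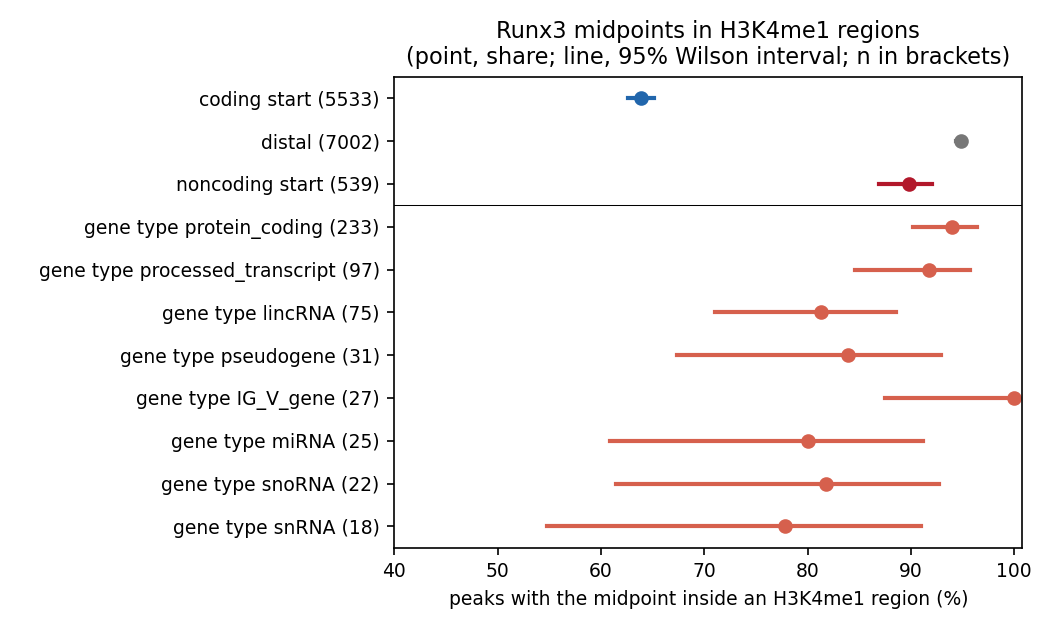
Percentage of Runx3 peaks with the midpoint inside an H3K4me1 region (x axis, from 40%) for the 3 classes of peaks and, below the line, for the peaks at noncoding starts by gene type, with n in brackets. Points are shares and lines 95% Wilson intervals. The point of coding starts (63.9%) is left of that of every group of noncoding starts, but the intervals of the microRNA, snoRNA and snRNA groups include 63.9%.

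CpG content also differed. A peak was called CpG-rich when its GC content was over 50% and its observed/expected CpG ratio over 0.6. This held for 102 of 539 peaks (18.9%), against 29.3% of all peaks, 75.2% at coding starts (difference -56.3 points, -59.6 to -52.6) and 2.21% of distal peaks (difference 16.7 points, 13.6 to 20.3). The median CpG ratio was 0.316 (0.293 to 0.344) at noncoding starts, 0.750 (0.745 to 0.757) at coding starts and 0.217 (0.214 to 0.220) at distal peaks. lincRNA starts had the higher values among the large types, with a median of 0.524 (0.444 to 0.653) and 26 of 75 peaks CpG-rich (34.7%, 24.9 to 46.0), while the median was 0.289 (0.264 to 0.311) at protein-coding genes. Peak widths were alike in median, at 835 bp (810 to 857) for noncoding starts, 844 bp for coding starts and 815 bp for distal peaks.

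Within each CpG class the H3K4me1 difference was smaller than over all peaks. Among CpG-poor peaks the midpoint was in H3K4me1 for 94.5% (413 of 437) at noncoding and 88.0% (1208 of 1372) at coding starts, a difference of 6.46 points (3.45 to 9.01). Among CpG-rich peaks the shares were 69.6% (71 of 102) and 55.9% (2325 of 4161), a difference of 13.7 points (4.11 to 22.0). Within CpG-rich peaks the interval held 0 with a limit of 500 bp for both kinds of start (8.41 points, -0.481 to 16.5). It also held 0 with every coding start at least 5 kb away (7.50 points, -4.22 to 17.9). Within CpG-poor peaks it held 0 when every transcript of a protein-coding gene was counted as coding (3.44 points, -0.931 to 6.61).

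**Figure D3:**
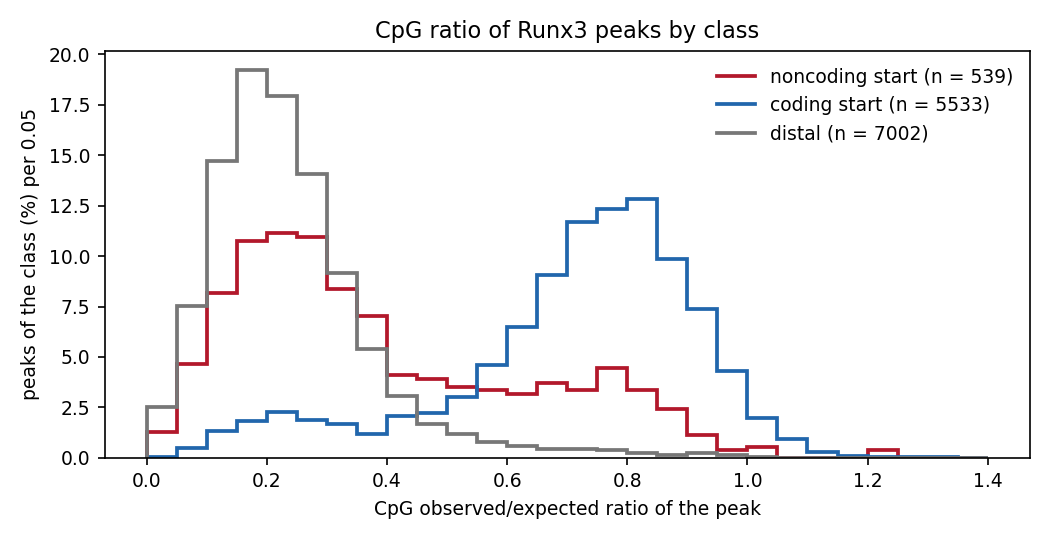
Percentage of the peaks of each class (y axis) by the observed/expected CpG ratio of the peak (x axis, steps of 0.05) for 539 noncoding-start, 5533 coding-start and 7002 distal peaks. Noncoding-start peaks are most frequent at low ratios (median 0.316), with 11.1% in their fullest step, against 19.2% for distal peaks (median 0.217). They also have a tail over the range of the coding-start peaks (median 0.750).

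A RUNX consensus was found in the central 200 bp of 381 of 539 peaks (70.7%, 66.7 to 74.4), against 69.2% of all peaks. The share was 10.1 points (5.87 to 13.96) above the 60.6% at coding starts and differed from the 74.5% of distal peaks by -3.79 points (-7.90 to 0.0358). Equal windows 5 kb downstream of the peaks held a match in 153 of 514 (29.8%, 26.0 to 33.9). Over the whole peak, 93.9% at noncoding and 91.5% at coding starts held a match, and the difference of 2.43 points was within counting error (-0.0291 to 4.32). Where a peak held a match, the median distance of the nearest one from the midpoint was 47 bp, against 61 bp at coding starts and 41 bp at distal peaks.

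The variants were found unequally often. TGTGGT was in the central 200 bp of 42.5% of the peaks (38.4 to 46.7), against 19.3% at coding starts (difference 23.2 points, 18.9 to 27.5) and 54.9% of distal peaks (difference -12.4 points, -16.7 to -8.04). TGCGGC, which holds a CpG, ran the other way, with 10.2% (7.92 to 13.1) at noncoding starts, 21.6% at coding starts (difference -11.4 points, -13.9 to -8.32) and 4.41% of distal peaks (difference 5.79 points, 3.46 to 8.67). TGTGGC was found in 30.2% at noncoding starts, 17.6% at coding starts and 28.3% of distal peaks, and TGCGGT in 14.7%, 18.4% and 8.91%. In the windows 5 kb away the shares were 16.7% for TGTGGT, 12.3% for TGTGGC, 1.17% for TGCGGT and 1.95% for TGCGGC. Within the noncoding starts, TGTGGT was in 15.7% of the 102 CpG-rich and 48.7% of the 437 CpG-poor peaks, and TGCGGC in 22.5% and 7.32%. The CpG class was taken from the same sequence as the matches, and TGCGGC and TGCGGT each hold a CpG themselves. The variants and the CpG class are therefore not independent, and a preference of Runx3 for a variant was not tested. Both strands were searched, a peak may hold several variants, and matches may overlap.

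**Figure D4:**
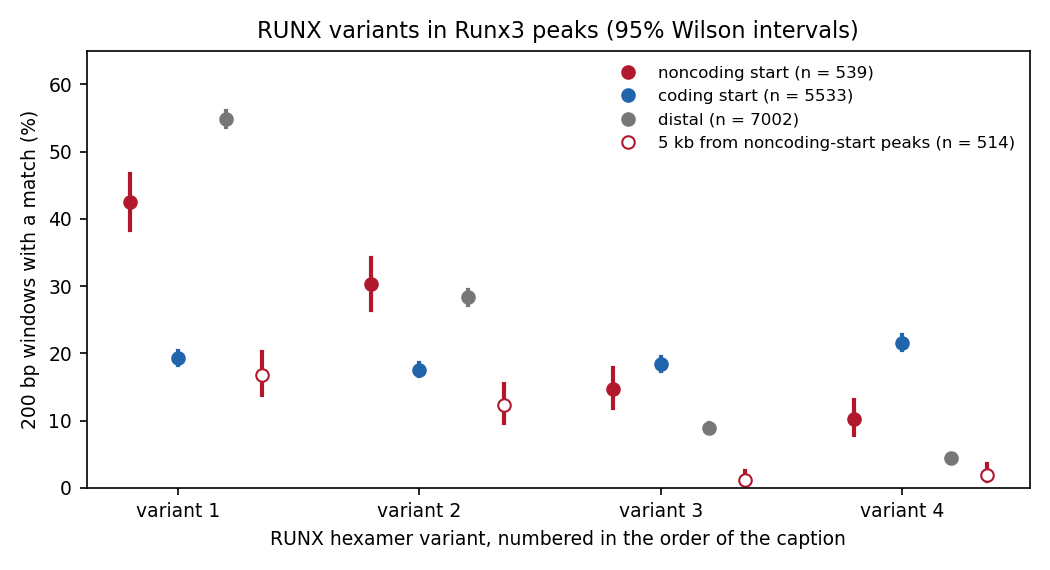
Percentage of 200 bp windows with a RUNX match (y axis) for variant 1 (TGTGGT), variant 2 (TGTGGC), variant 3 (TGCGGT) and variant 4 (TGCGGC) on the x axis, in the centres of noncoding-start, coding-start and distal peaks, and in windows 5 kb downstream of noncoding-start peaks (open points). Bars are 95% Wilson intervals. For TGTGGT the noncoding starts (42.5%) stand between coding starts (19.3%) and distal peaks (54.9%), and for TGCGGC the order is reversed.

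5 other consensus sequences were searched in the same windows. The SP1 sequence GGGCGG, a feature of CpG-rich promoters, was found in 104 peaks (19.3%), against 21.5% of all peaks, 6.40% of distal peaks and 46.0% at coding starts (difference from coding starts -26.7 points, -30.1 to -22.9). The ETS sequences AGGAAGT and CGGAAGT were found in 15.96% (13.1 to 19.3), against 20.1% of all peaks and 21.0% of distal peaks (20.1 to 22.0). At coding starts the share was 18.98%, a difference of -3.02 points that was within counting error (-6.06 to 0.460). The AP-1 sequences TGACTCA and TGAGTCA were found in 28 peaks (5.19%), against 5.49% of all peaks, 7.36% of distal peaks and 2.46% at coding starts (difference from coding starts 2.74 points, 1.10 to 4.98). In the central 100 bp (0.68 points, -0.222 to 2.23) and in peaks of at least the median width (1.57 points, -0.349 to 4.65) the AP-1 interval held 0. In the windows 5 kb away SP1 was found in 3.70%, ETS in 5.25% and AP-1 in 3.70%, and for AP-1 the interval of that share (2.38 to 5.70) overlapped the one in the peaks (3.62 to 7.41). The NFY sequence CCAAT was found in 102 peaks (18.9%, 15.8 to 22.5), against 21.5% of all peaks, 26.3% at coding starts, 18.8% of distal peaks and 24.9% of the windows 5 kb away. The T-box sequence AGGTGTGA was found in 12 peaks (2.23%, 1.28 to 3.85), against 2.23% of all peaks, 0.886% at coding starts and 3.10% of distal peaks.

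Long noncoding RNA genes with such a peak included 3 of the 21 listed that the annotation holds. Over the whole annotation, such a peak stood at 73 of 1273 lincRNA genes (5.73%) and at 93 of 2572 genes of the processed_transcript type (3.62%). Neat1, the RNA scaffold of paraspeckles, had 2 peaks on chromosome 19. The first was centred 849 bp downstream of a start (chr19:5843316-5844251, 936 bp) inside an H3K4me1 region of 14255 bp, and the second 360 bp upstream of a start (chr19:5844981-5846694, 1714 bp) whose midpoint was outside H3K4me1. Malat1, a nuclear RNA of splicing speckles, had a peak of 1357 bp centred 756 bp upstream of its start. Dleu2, the host transcript of the Mir15a and Mir16-1 cluster, had a peak of 559 bp centred 424 bp upstream, inside an H3K4me1 region of 3322 bp. Neither the Malat1 nor the Dleu2 peak held a RUNX match in its central 200 bp.

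Of 13 small-RNA host genes in the annotation, 3 had a peak at a noncoding start only, and 7 had any Runx3 peak under 1 kb away. Counted per start, 21.2% of all lincRNA starts and 8.06% of all starts of the processed_transcript type had a Runx3 midpoint that near. The 3 host genes with a peak at a noncoding start only were Snhg3, Snhg4 and Snhg5. Their peaks were centred 990, 298 and 95 bp upstream of the start. The Snhg5 peak (1083 bp) had a CpG ratio of 0.986, a TGCGGT match 72 bp from the midpoint, shown above, and its midpoint outside H3K4me1, with H3K4me1 overlapping another part of it. Of 7 listed structural RNAs in the annotation, 2 had a peak at a noncoding start only, and 3 had any Runx3 peak under 1 kb away. Over all annotated starts, 2.90% of snoRNA and 2.32% of snRNA starts had a Runx3 midpoint that near. For those at least 1 kb from a coding start the shares were 1.805% and 1.58%. The list was chosen with earlier results known, so its counts are a description. Scarna2, which guides modification of spliceosomal RNA in Cajal bodies, had a peak 54 bp upstream of its start. That peak had 3 RUNX matches in its central 200 bp and its midpoint outside H3K4me1. Snord118, the U8 snoRNA of ribosomal RNA processing, had a peak 262 bp upstream inside a region of 3003 bp.

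Of 71 lymphocyte microRNAs in the annotation, 5 had a peak at a noncoding start only, and of all 1577 annotated microRNA genes 25 did (1.585%). These were Mir142 and Mir150, both abundant in lymphocytes, Mir132, and the let-7 family members Mirlet7g and Mirlet7i. RefSeq (GRCm38.p6) gave mature sequences for all 5, and for 9 of the 25 microRNA genes with a peak. They are shown 5′ to 3′ with the seed (bases 2 to 8) in capitals, and the let-7g and let-7i arms below share the seed GAGGUAG.
mmu-let-7g-5p: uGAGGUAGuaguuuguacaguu
mmu-let-7i-5p: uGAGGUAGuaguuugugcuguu
mmu-miR-132-3p: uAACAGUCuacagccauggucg
mmu-miR-142a-5p: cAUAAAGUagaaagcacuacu
mmu-miR-142a-3p: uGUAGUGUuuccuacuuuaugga
mmu-miR-150-3p: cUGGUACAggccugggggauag

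The microRNA peaks differed in their surroundings. The Mir142 peak (chr11:87569814-87570820), 49 bp upstream of the annotated start, had no H3K4me1 overlap. The Mir132 peak (chr11:74986757-74987670), 47 bp downstream, and the Mir150 peak, 175 bp upstream, lay in H3K4me1 regions of 9871 and 6521 bp. The Mirlet7g peak, 820 bp upstream, lay within the gene Wdr82 in a region of 8657 bp. The Mirlet7i peak (chr10:122422047-122422855), 329 bp downstream, overlapped H3K4me1 but not at its midpoint, and had a CpG ratio of 1.20 and a TGCGGT match 84 bp from the midpoint. The next Runx3 midpoint was 170063 bp away from the Mirlet7i peak and 1716 bp from the Mir142 peak.

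Genes of NKC function were compared by 5 lists. For 22 of 539 peaks (4.08%, 2.71 to 6.10) the nearest protein-coding gene, by any of its transcript starts, was on one of the lists, against 7.11% of all Runx3 peaks. By protein-coding transcript starts alone it was 26 peaks (4.82%), against 7.13% of all. The signalling list made up 1.67% of these peaks and 1.60% of all peaks, receptors 0.557% and 1.295%, transcription factors 1.48% and 2.83%, and trafficking genes 0.371% and 0.773%. By protein-coding transcript starts alone the trafficking share was 0.928%, against 0.805% of all. The lists hold 257 annotated genes, and 18 of them were the nearest protein-coding gene of such a peak, at distances of up to 89786 bp. None of the 30 effector genes was the nearest gene of such a peak, and that list made up 0.606% of all peaks. Among receptors and surface proteins the genes were Lag3, an inhibitory receptor, Klrb1b, an inhibitory lectin-like receptor, and the activation marker Cd69. The Lag3 peak (637 bp) lay 420 bp upstream of a processed transcript of Lag3 itself. Those near Klrb1b and Cd69 lay at the lincRNAs Gm17395 and 2310001H17Rik, 17018 and 40668 bp from a coding start. The Gm17395 peak was 1508 bp wide with its midpoint outside H3K4me1, and the 2310001H17Rik peak lay in a region of 13823 bp.

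Among signalling genes, Nfkb1, a subunit of NF-kappaB, had 3 peaks at internal noncoding starts, 5329, 13699 and 14442 bp from its coding start, all in H3K4me1 regions of 11005 or 14316 bp. The lincRNAs 4833407H14Rik and 5830416P10Rik, whose nearest coding gene was the phosphatase gene Dusp5 at 67536 and 64185 bp, shared an H3K4me1 region of 8664 bp, and each peak had 2 RUNX matches in its central 200 bp. A pair of peaks at Jak1, the kinase of gamma-chain cytokine receptors, lay in an H3K4me1 region of 83618 bp. Of the pair, 1 was at a processed transcript 45 bp away and 1 at a U6 snRNA 848 bp away. The peak at the Jak1 processed transcript held no RUNX match in its whole width. Lck, a Src-family kinase, had a peak 227 bp upstream of an intron-retaining transcript, 1686 bp from its coding start. The peak at a processed transcript of Lcp2, the adaptor SLP-76, held 4 RUNX matches in its central 200 bp, the nearest 1 bp from the midpoint, and had no H3K4me1 overlap.

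Among transcription factor genes, the peak at Runx3 itself (chr4:134709333-134710228) lay 361 bp downstream of a processed transcript and 1370 bp from a coding start, and it held no RUNX match in its whole width and had its midpoint outside H3K4me1. Antisense starts carried the peaks at Ikzf1 (Gm12000), Tcf7 (A630014C17Rik) and Jun (BC042782), in H3K4me1 regions of 64550, 22283 and 2533 bp. Processed transcripts carried those at Gata3 and Zeb1. The peaks whose nearest coding gene was Bach2 or Irf8 lay at the pseudogene Gm11928, 89786 bp from Bach2, and at the microRNA annotation AC114819.1, 20242 bp from Irf8. Of trafficking genes, Coro1a, which encodes the actin-binding protein coronin 1A, had a peak at an intron-retaining transcript 1797 bp from its coding start, and a U6 snRNA start carried a peak 35180 bp from Itgb1, the integrin beta 1 gene.

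The widest of the 539 peaks were those at the antisense gene Gm15247 on chromosome X (2598 bp, within Mid1, no H3K4me1 overlap), Pisd-ps2 (2167 bp), AC114819.1 (2104 bp), the antisense gene 2310044K18Rik (1983 bp, within Il16) and a U4 snRNA (1790 bp). Of the gene types with at least 10 peaks, the 3 peaks closest to a start were, for lincRNAs, 9430008C03Rik (1 bp), Gm11974 (4 bp) and B230206F22Rik (8 bp), for protein-coding genes those at transcripts of Jarid2 (4 bp), Styk1 (6 bp) and Ccdc17 (9 bp upstream), and for the processed_transcript type 6820431F20Rik (6 bp), Gm16266 (7 bp upstream) and Gm11201 (11 bp). All but the 6820431F20Rik peak of these 9 had the midpoint in H3K4me1. The 3 closest snRNA peaks were at a U1 (16 bp), a U5 (59 bp upstream) and a U4 (100 bp) gene, the closest snoRNA peaks at Scarna2, Snord104 (78 bp) and a snoU13 copy (238 bp, within Hopx), the closest pseudogene peaks at Gm10060 (12 bp upstream), Rnf113a2 (27 bp) and Tmem185b (31 bp), and the closest microRNA peaks, beside Mir132 and Mir142, at mmu-mir-689-2 (47 bp).

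The peaks at immunoglobulin heavy chain variable (V) segments formed a group with a shared sequence. V segments are the germline units that B cells join to D and J segments, and a recombination signal, with the consensus heptamer CACAGTG, follows a functional segment. Of the 27 peaks of the type IG_V_gene, 23 lay on chromosome 12 between 115232371 and 117191234, a span with 33 Runx3 peaks and 77 H3K4me1 regions in all. The remaining 4 lay at Trbv1, Trbv15 and Trbv17 of the T cell receptor beta locus and at Gm17015 on chromosome 14. 3 segments are printed here because their peaks hold 3 RUNX matches each in the same arrangement, with mm9 windows chr12:115707263-115707384 (- strand), chr12:115854038-115854159 (- strand) and chr12:115884760-115884881 (- strand) on the strand of the segment and the matches in capitals.
Gm17000: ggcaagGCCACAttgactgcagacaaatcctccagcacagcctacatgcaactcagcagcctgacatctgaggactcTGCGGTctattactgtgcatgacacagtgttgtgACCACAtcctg
Ighv1-12: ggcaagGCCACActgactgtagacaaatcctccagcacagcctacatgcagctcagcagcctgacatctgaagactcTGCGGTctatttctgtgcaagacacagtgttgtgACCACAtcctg
Gm16857: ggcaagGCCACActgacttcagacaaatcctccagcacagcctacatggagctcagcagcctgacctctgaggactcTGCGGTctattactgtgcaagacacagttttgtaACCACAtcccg

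The 23 midpoints lay 188 to 542 bp downstream of the start of the segment (median 373 bp) and from 74 bp before to 161 bp after its end (median 18 bp before), over the end of the segment. All 23 peaks held a RUNX match. A match was centred exactly 15 bp past the end in 21 of 23, 19 bp before it in 15 and 90 bp before it in 15. Matches 34 bp apart were present in 16 peaks and matches 71 bp apart in 14. Related segments are alike in sequence, so the 23 are not independent of each other. Of the 89 annotated V segments of chromosome 12 with no Runx3 midpoint under 1 kb from the start, 23 (25.8%) had a match at 15 bp, 10 (11.2%) at 19 bp before the end and 30 (33.7%) at 90 bp before it, and 62 (69.7%) had a RUNX match anywhere in the 700 bp from the start. These positions were read from the segments with peaks, so the comparison is a description. The heptamer CACAGTG directly followed 20 of the 23 segments and 51 of the 89.

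**Figure D5:**
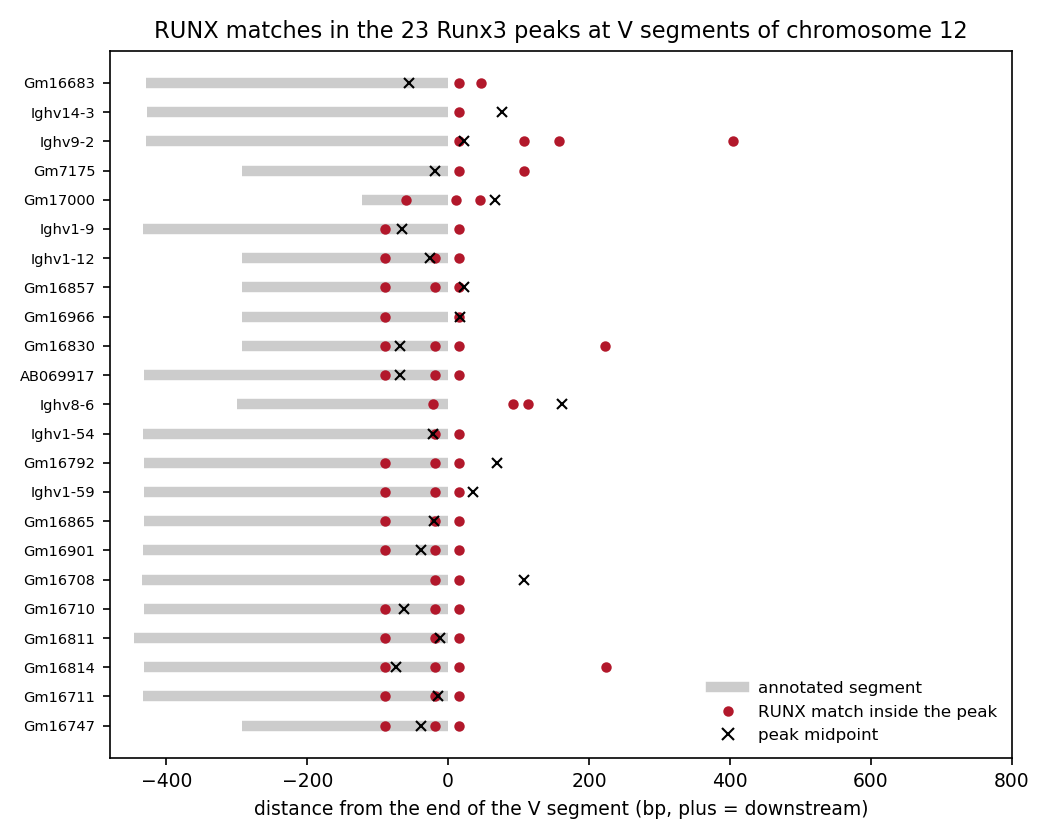
RUNX matches (red points) in the 23 peaks at V segments of chromosome 12, 1 segment per row, by distance from the end of the annotated segment in bp (x axis, plus is downstream), with the segment as a grey bar and the peak midpoint as a cross. Points line up at 15 bp past the end in 21 rows and at 19 and 90 bp before it in 15 rows each.

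All 23 segments lay under an H3K4me1 region, against 31 of the 89 without a peak (34.8%), while 95.7% of all Runx3 peaks overlapped one. The regions that held the 23 midpoints were 910 to 4131 bp wide. Near-identical copies elsewhere in mm9 (at least 95% identity over at least 50% of the peak) were found for 10 of the 23. The authors kept unique alignments, and the part of copy number and strain differences in these peaks was not tested. Marker genes of B and T cells were looked up in the same lists, with a search range from 5 kb before to 5 kb after each gene. Over all 22238 genes that encode protein, 39.7% held a Runx3 peak in that range and 67.7% an H3K4me1 region. Of 7 B cell genes, 4 had a Runx3 peak and 6 an H3K4me1 region in that range. Pax5 had 2 Runx3 peaks and 6 H3K4me1 regions, Ebf1 1 and 8, and Cd79a 2 and 2, whereas Ms4a1 had 0 of both. Of 8 T cell genes, 3 had a Runx3 peak and 6 an H3K4me1 region, while all 8 NKC genes had both. Whether other lymphocytes in the preparation contributed to the V segment peaks was not tested, and in a list from bulk cells the share of cells bound and the binding per cell cannot be told apart.

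Seen from the starts, 697 of 26737 noncoding transcript starts that were at least 1 kb from a coding start (2.61%, 2.42 to 2.81) had a Runx3 midpoint under 1 kb away. The share was highest at lincRNA starts, 120 of 1124 (10.7%, 9.003 to 12.6), followed by V segments (27 of 355, 7.61%, 5.28 to 10.8), whose interval overlaps, and the processed_transcript type (123 of 2897, 4.25%, 3.57 to 5.04). It was 2.63% at noncoding transcripts of protein-coding genes, 1.84% at microRNAs, 1.805% at snoRNAs, 1.58% at snRNAs and 0.591% (32 of 5418, 0.419 to 0.833) at pseudogenes. The start itself lay inside an H3K4me1 region for 33.0% of these lincRNA starts, 15.3% of the processed_transcript type, 8.46% of microRNAs and 2.46% of pseudogenes. With starts under 1 kb from a coding start counted too, 6661 of 42636 noncoding starts (15.6%) had a Runx3 midpoint that near. The share of protein-coding transcript starts, for which no such limit was set, was 25.4%. With all starts counted, the share was 21.2% at lincRNAs and 22.2% at noncoding transcripts of protein-coding genes, so that lincRNAs were no longer highest.

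The peaks at noncoding starts often had neighbours. Another Runx3 midpoint lay under 10 kb away for 56.0% of them, against 35.8% at coding starts (difference 20.2 points, 15.8 to 24.6) and 48.2% of distal peaks (difference 7.80 points, 3.42 to 12.1). The interval against distal peaks held 0 with every coding start at least 5 kb away (4.11 points, -1.16 to 9.33), when all transcripts of protein-coding genes were counted as coding (4.60 points, -1.17 to 10.3), and in peaks of at least the median width (3.41 points, -2.66 to 9.30). The median distance to the next Runx3 midpoint was 7936 bp (6960 to 9364) at noncoding starts, 19067 bp at coding starts and 10677 bp at distal peaks.

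Just inside the limit to the noncoding start were peaks at AC152946.1, Gm9783 and Gm13605 (996, 997 and 998 bp), and just outside were peaks at Tor1aip1, Fcho1 and Rgs10 (1003, 1004 and 1006 bp). All 6 midpoints lay in H3K4me1. Just inside the limit to the coding start were peaks at Ccdc17, Snx30 and Dgkz (1006, 1013 and 1014 bp), and just outside those at Rbm38, Klhdc2 and Ehd4 (993, 992 and 981 bp).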

How the data were processed

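The authors, according to their labels and methods text, aligned short reads to mm9 with ELAND, kept unique alignments, joined the reads of both biological repeats and called regions with MACS against NIS. The deposited files give only region coordinates (start and end in bp), with no score, p-value or depth, so no signal was compared. The members and gene lists were chosen with earlier results of these data known, and the marker genes after seeing the data. Midpoints were compared with GENCODE M1 transcript starts on the same build, and coordinates are 1-based. Starts were called coding by transcript type, which the class definition calls for and which had been planned as the alternative, while the reading by gene type (301 peaks) became the alternative. Motifs were searched on both strands in the central 200 bp and, for background, in a window 5 kb downstream that met no Runx3 peak. Copies were searched with minimap2 2.31. Shares have 95% Wilson intervals, differences Newcombe intervals and medians order-statistic intervals, computed in Python 3.11.15 with scipy 1.17.1, and the functions were tested on simulated data. Peaks are not replicates, so no p-value was computed. The genes named from the lists are noncoding genes with such a peak and, for the NKC lists, the nearest protein-coding genes of such peaks. Also named are the 3 peaks nearest to a start of each gene type with at least 10 peaks, and the 5 widest of all. The 2 widest of each such gene type were chosen as well, but not all of them are named here. Those outside this rule (Sema4d, Dgkz, the V segments) were chosen after their values were seen. The comparisons of CpG content, motif variants, neighbours and H3K4me1 within CpG or gene type groups were added after seeing the data. A sequence and a marker gene of the chosen sets are not reported here.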

Additional observations from a re-analysis of the deposited data

How the results depend on the processing

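In all, 213 alternative values were computed over 38 results, 88 of them added after seeing the data, and 166 kept their direction and their side of 0, moved by less than their error or, for a number of peaks, stayed within 1.5 times (426 peaks with a limit of 500 bp, 363 with every coding start at least 5 kb away). When every transcript of a protein-coding gene was counted as coding, 301 peaks remained, the overlap difference from coding starts turned to -0.0419 points, the RUNX difference from distal peaks became -6.71 points with an interval that left out 0, the neighbour difference from distal peaks (4.60 points) and the H3K4me1 difference within CpG-poor peaks (3.44 points) no longer did, and the median CpG ratio was 0.365. The limit of 500 bp stood for both noncoding and coding starts, so its 426 peaks included some at 500 bp to 1 kb from a coding start. With it the overlap difference turned to -0.545 points. The ETS difference (-4.77 points) and the RUNX difference from distal peaks (-5.70 points) left out 0. The H3K4me1 differences within CpG-rich peaks (8.41 points) and between gene types (6.26 points) no longer did, and the median CpG ratio was 0.417. Among noncoding starts at least 1 kb from a coding start, 1.74% had a Runx3 midpoint under 500 bp away. With every coding start at least 5 kb away, the H3K4me1 difference within CpG-rich peaks (7.50 points) and the neighbour difference from distal peaks (4.11 points) held 0, the median CpG ratio was 0.289 and the share at protein-coding genes 33.6%. Among peaks of at least the median width there were 282 peaks with a median width of 968 bp, the AP-1 difference (1.57 points) and the neighbour difference from distal peaks (3.41 points) held 0, and the RUNX difference from distal peaks (-5.50 points) left it out. That RUNX difference also left out 0 without chromosome X (-3.92 points), without peaks with a near-identical copy (-4.04 points) and without pseudogenes and receptor segments (-5.05 points), where the share at protein-coding genes was 48.4%. In the central 100 bp the AP-1 difference was 0.68 points, and over the whole peak the RUNX difference from coding starts was 2.43 points, both with intervals that held 0. The overlap difference was 19.3 points with only H3K4me1 regions of at least the median width and 15.8 points with an overlap of at least 50% of the peak, both leaving out 0. Counting every start of each gene type raised the share of starts with a peak to 15.6%. The causes were not tested. Coordinates alone carry no depth, so weak and strong peaks cannot be told apart, and without replicate lists no spread between experiments could be set beside any difference. No paired analysis was possible because each group has 1 sample.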
